A study of Homo sapiens with 72 samples.

Results

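The late phase of mRNA decay was followed in A375 cells, an established human melanoma line, by comparing cytoplasmic RNA taken 5 h and 3 h after transcription was blocked. The comparison used 8 of the 72 QuantSeq libraries of the series, 4 at 5 h and 4 at 3 h. QuantSeq reads the 3′ end of polyadenylated RNA. The 8 libraries were replicates 1 and 2 of both control conditions. GL2 cells had been transfected for 42 h with a control siRNA against firefly luciferase, which human cells lack, and pQ cells had been kept for 18 h in control medium with glutamine. All of them received 25 µM triptolide alone (the T arm), so no untreated culture was followed in parallel and the 0 h libraries of the same conditions were the starting level. Side comparisons used the same conditions given triptolide with 100 µg/ml cycloheximide (the TCHX arm), and cells in which CTU2 was targeted by siRNA for 42 h (CTU2) or which were kept for 18 h without glutamine (mQ). Replicate 3 was left out because its 5 h libraries were known to stand apart. The labels do not say that replicates were separate cultures, so the p-values measure the spread between these libraries.

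Triptolide stops RNA polymerase II by acting on the TFIIH complex, after which the level of an mRNA can be read as what is left of the pool made before. Most mRNAs are degraded by shortening of the poly(A) tail, removal of the cap and digestion from the 5′ end. AU-rich elements in the 3′ UTR speed this up for many growth factor-responsive mRNAs, and cycloheximide, which freezes ribosomes on the mRNA, slows it for many. An mRNA with a constant half-life loses the same share of its level in every hour. A late decrease steeper than the early one, or a decrease that stops, departs from that course.

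Libraries held between 8762978 and 12518977 counts. Levels are normalised counts, that is, counts divided by a size factor taken from 315 stable genes, and every change over time is relative to these genes. Replicates 1 and 2 correlated with r between 0.985 and 0.990 across genes in the 6 GL2 and pQ groups of the T arm, whereas replicate 3 at 5 h correlated with them with r between 0.937 and 0.951. Over the 11745 genes tested, the median late change (the log2 of the 5 h over the 3 h level) was -0.14 and -0.16 in GL2 replicates 1 and 2 and -0.10 and -0.19 in pQ replicates 1 and 2. In replicate 3 it was -0.45 in GL2, -0.53 in pQ, -0.64 in CTU2 and 0.12 in mQ cells. SOX10, MITF and S100B, melanocyte lineage markers, were present in all 8 libraries at 38.5 to 417 CPM (the count scaled to the library total). The 18 genes of the melanoma lineage list summed to between 5550 and 6020 CPM. VIM made up most of this sum, at 3780 to 4200 CPM, with CD44 at 520 to 661 CPM. The pigment genes differed, with DCT at 18.4 to 108, PMEL at 3.7 to 5.33 and MLANA, TYR and TYRP1 at or below 1.11 CPM. The epithelial markers EPCAM and CDH1 were at 0 in all 8 libraries although the 10 epithelial markers, mostly KRT18 and KRT10, summed to between 317 and 426 CPM, and 8 blood markers summed to at most 1.49 CPM.

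**Figure D1:**
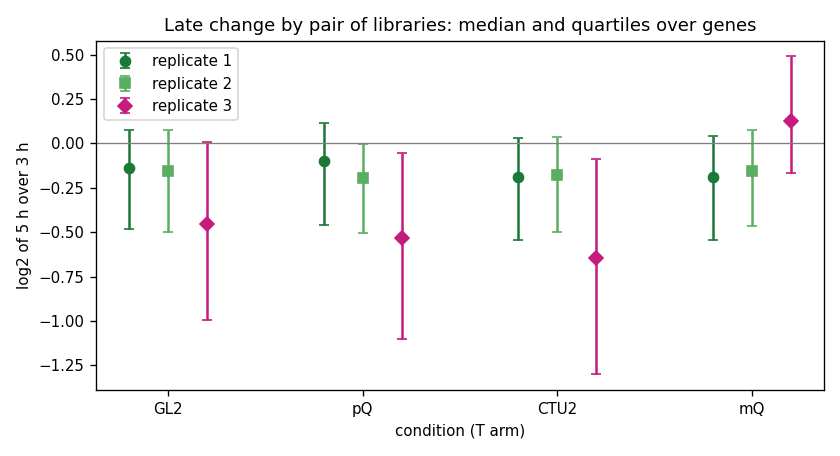
Median late change over the 11745 genes tested (points) with the quartiles (bars), on a log2 scale, for each of the 12 pairs of 5 h and 3 h libraries in the T arm. The 8 pairs of replicates 1 and 2 had medians between -0.19 and -0.10, and the 4 pairs of replicate 3 lay between -0.64 and 0.12.

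Between 3 h and 5 h, 2386 genes decreased, which was 20.3% of those tested, and 119 increased, which was 1.01% (edgeR quasi-likelihood test, Benjamini-Hochberg adjusted p under 0.05). The median of all genes tested was -0.15, and 594 genes fell to 50% of the 3 h level or lower. Of the 2386 decreases, 2270 were lower at 5 h in all 4 pairs of libraries, and for 1358 the 4 libraries at 5 h all lay below the 4 at 3 h. These counts come from the libraries that made the calls, so they are no separate support. The balance of the calls depended on the scale. With TMM scaling, which sets the bulk of genes to no change, the median moved to -0.02 and 62.5% of the calls were decreases, against 95.2% with stable genes. In bulk RNA, a lower level in every cell cannot be told apart from fewer cells that hold the mRNA.

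**Figure D2:**
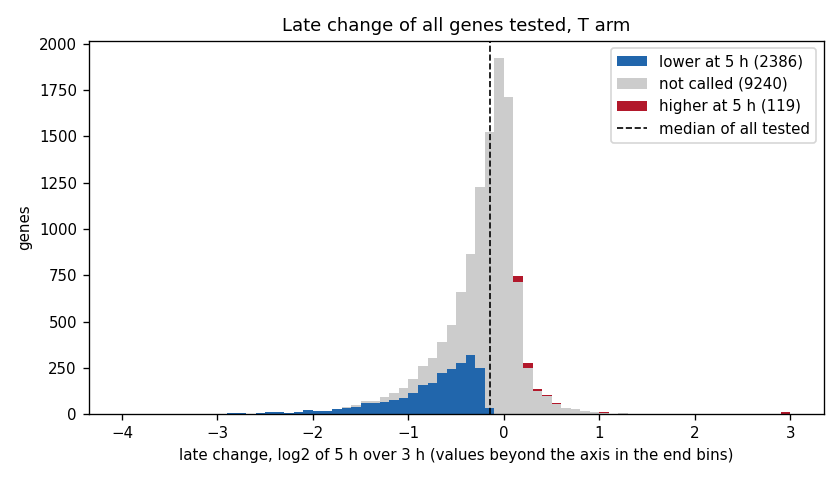
Number of genes (y axis) by late change in bins on a log2 scale (x axis), coloured by the call at an adjusted p under 0.05. The 2386 decreases form the left shoulder, the 119 increases are scattered on the right, and the dashed line marks the median of -0.15.

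The steepest late decreases among genes with a mean of at least 50 raw counts at 3 h included FADD, CCDC71 and BAMBI, each left at under 3% of its 0 h level by 5 h. FADD, the adaptor that couples death receptors to caspase 8 (chr11:70203296-70207390, plus strand), had normalised counts of 182 and 232 in GL2 and 128 and 139 in pQ cells at 3 h. At 5 h its counts were 22.5 and 27.6 in GL2 and 6.35 and 36.4 in pQ cells. All libraries at 5 h lay below all those at 3 h, and the late change was -2.92 ± 0.26 (SE, n = 4 against 4 libraries, edgeR adjusted p = 1.49e-11). What was left of the 0 h level was 18.0% at 3 h and 2.46% at 5 h.

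CCDC71, a coiled-coil protein gene (chr3:49162535-49166331, minus strand), went from 81.8 and 59.6 in GL2 and 54.4 and 62.5 in pQ cells at 3 h to 2.14, 9.2, 3.17 and 11.8 at 5 h. Its late change was -3.33 ± 0.43 (SE, edgeR adjusted p = 1.11e-07), and the times did not overlap. BAMBI, a membrane decoy receptor of the TGF-beta family (chr10:28677510-28682932, plus strand), was at 108 and 165 in GL2 and 84.1 and 110.4 in pQ cells at 3 h. It was at 12.8, 32.2, 10.3 and 11.8 at 5 h, a late change of -2.84 ± 0.28 (SE, edgeR adjusted p = 2.06e-10). The mRNA of the ephrin ligand EFNA1 changed by -2.56, that of the RNA kinase CLP1 by -2.71, and that of AUNIP, a partner of the Aurora A kinase, by -2.47. SPSB1, a substrate receptor of a ubiquitin ligase, changed by -2.45 and MAD2L1BP, which silences the spindle checkpoint, by -2.41. CLP1 and AUNIP overlap a coding gene on the opposite strand (YPEL4 and MTFR1L), and the strand setting of the counting was not stated.

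A different course was seen for LOC105375696, which had 0 counts in all 4 libraries at 0 h. It stood at 62.6 and 61.7 in GL2 and 46.2 and 46.8 in pQ cells at 3 h, at least 53.9-fold above a floor of 3 counts over the 4 libraries. At 5 h it was at 4.6 in GL2 replicate 2 and at 0 in the other 3 libraries. LOC107986513, with a mean of 72.7 at 0 h and 109 at 3 h, was at 19.2 at 5 h. Both decreased late after a level at 3 h that was not below that at 0 h. A level that rises from 0 while transcription is blocked cannot be what was left of the earlier pool, and the reads behind such counts were not examined here.

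**Figure D3:**
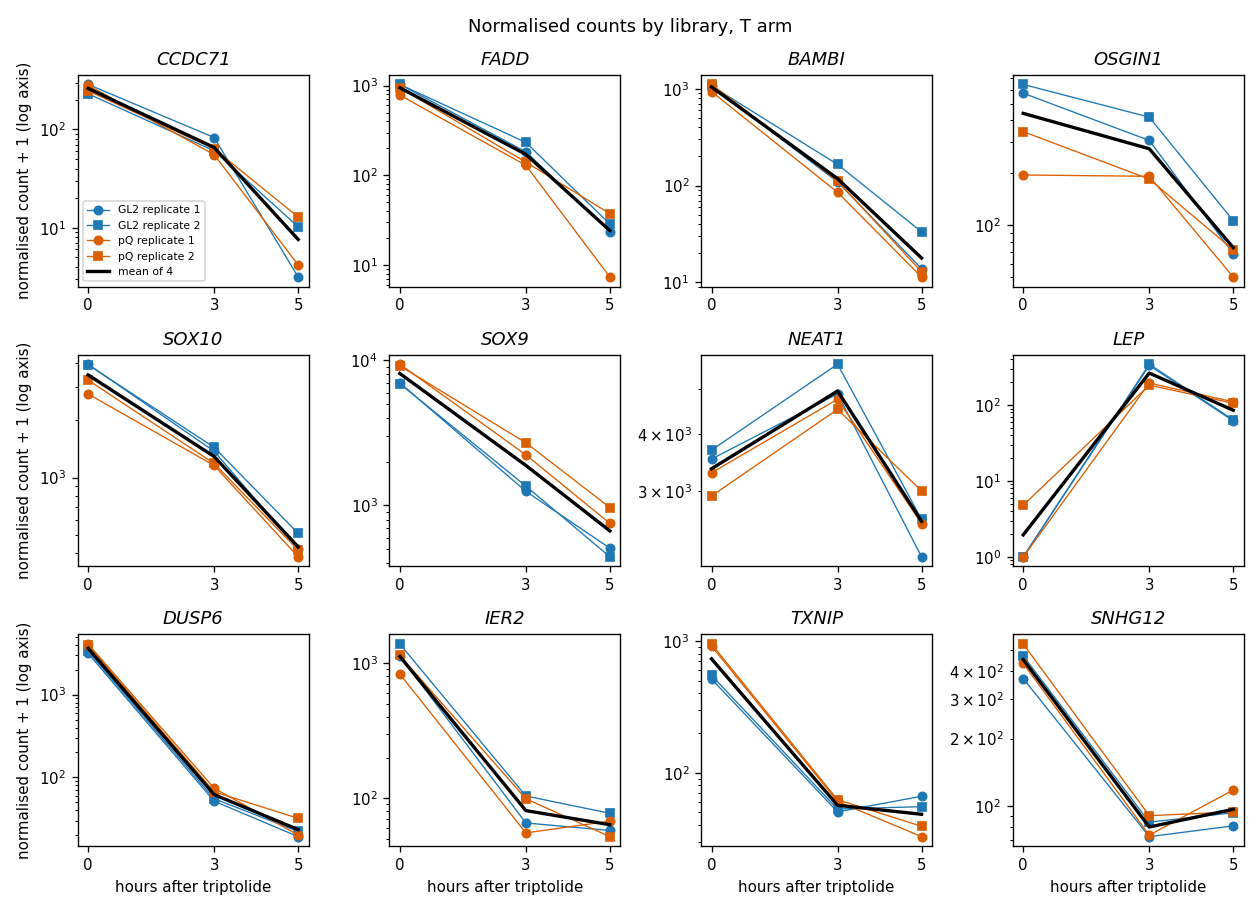
Normalised count plus 1 (log axis) at 0, 3 and 5 h of triptolide for 12 genes, with a line for each of the 4 series of libraries (GL2 and pQ, replicates 1 and 2) and the mean in black. CCDC71, FADD, BAMBI and OSGIN1 turn downward after 3 h, SOX10 and SOX9 fall throughout, and NEAT1 and LEP stand higher at 3 h than at 0 h or 5 h. After 3 h, DUSP6 falls less steeply than before, and IER2, TXNIP and SNHG12 flatten.

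Among the melanoma lineage genes, SOX10 and SOX9 had late decreases with some of the smallest p-values of all genes tested. SOX10, the neural crest factor that drives the melanocyte programme (chr22:37970686-37987422, minus strand, with POLR2F on the opposite strand), had counts of 1373 and 1439 in GL2 and 1156 and 1185 in pQ cells at 3 h. At 5 h it had 419 and 508 in GL2 and 382 and 415 in pQ cells, so all libraries at 5 h lay below those at 3 h. The late change was -1.58 ± 0.08 (SE, edgeR adjusted p = 2.33e-18), a half-life of 1.27 h relative to the stable genes, beside 2.12 h between 0 h and 3 h. SOX9 was at 1251 and 1360.3 in GL2 and 2233 and 2704 in pQ cells at 3 h, and at 507, 442, 752 and 967 at 5 h. It was higher in pQ than in GL2 cells at both times, and its late change was -1.49 ± 0.08 (SE, edgeR adjusted p = 2.72e-18), with half-lives of 1.39 h early and 1.34 h late. MITF, the master regulator of pigment cells, decreased less, by -0.64 ± 0.07 (SE). These were the 3 decreases among the 15 tested genes of the melanoma lineage list, a share close to the 20.3% of all genes.

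**Figure D4:**
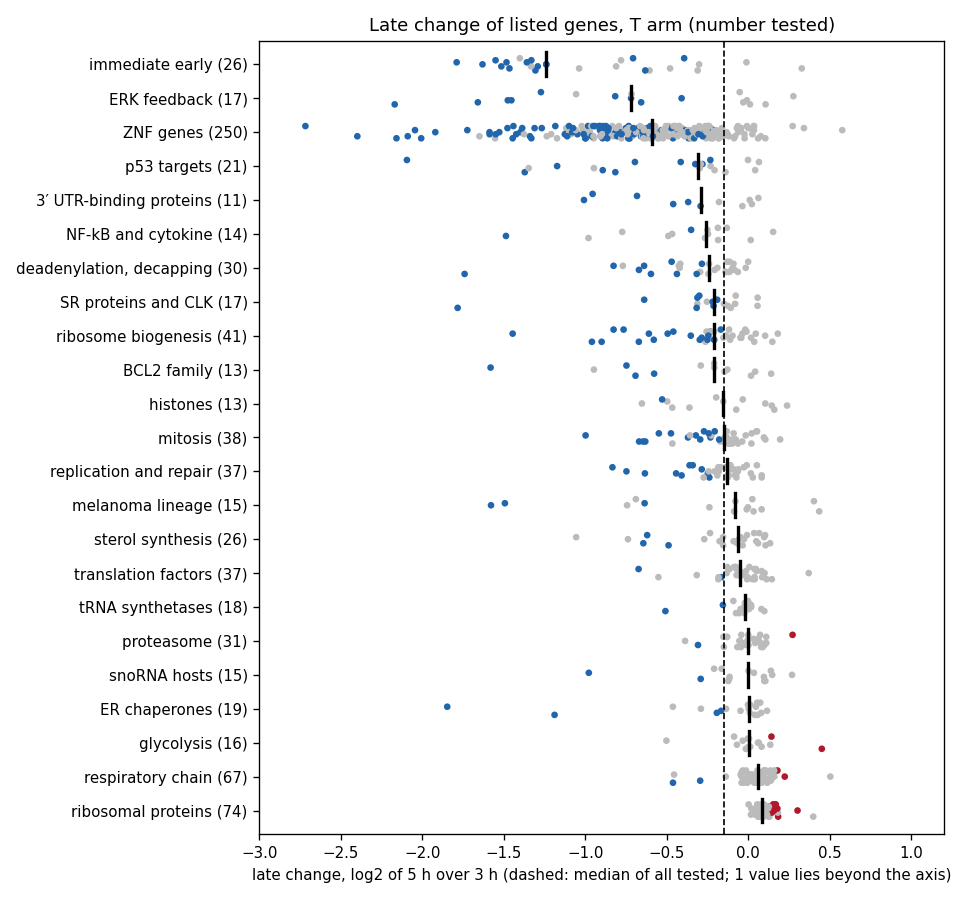
Late change on a log2 scale (x axis) of each tested gene of 23 lists (rows, number tested in brackets), blue for decreases, red for increases and grey for genes not called, with the median of each list as a black bar. The immediate early list lies farthest left with a median of -1.24, the ribosomal proteins lie farthest right with 0.09, and the dashed line marks the median of all genes.

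Of the 26 lists of genes, the immediate early and ERK lists had the lowest medians after 3 h, as a description with no test between lists. Over all genes tested, 20.3% decreased, 1.01% increased and the median was -0.15. Of 36 immediate early genes, 26 passed the filter on low counts, 15 of these decreased and 0 increased, and the median was -1.24. FOSL1, an AP-1 subunit, fell from 340.2 and 631 in GL2 and 163 and 302 in pQ cells to 140.1, 218, 76.9 and 131. CEBPB, a basic leucine zipper factor, changed by -1.79 and JUND, another AP-1 subunit, by -1.24. In the ERK pathway, where feedback inhibitors are encoded by short-lived mRNAs, 9 of 17 genes tested decreased and the median was -0.72. DUSP4, a nuclear MAP kinase phosphatase, went from 1190.3 and 1103 in GL2 and 1046 and 1105 in pQ cells to 323, 394, 311 and 383, a late change of -1.66 ± 0.09 (SE, edgeR adjusted p = 4.12e-18). SPRY2, a receptor kinase inhibitor, changed by -2.17 and PHLDA1 by -1.48.

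Genes of mRNA decay were also listed. Of 11 AU-rich element and 3′ UTR-binding proteins, 6 decreased, led by PUM2, a Pumilio repressor, at -0.96 ± 0.09 (SE) and ZFP36L2, which recruits deadenylases to AU-rich elements, at -1.01 ± 0.10 (SE). Of 30 deadenylation and decapping factors, 9 decreased, beside 20.3% of all genes. BTG1, an adaptor of the CCR4-NOT deadenylase, was the clearest of these, with 948 and 1093 in GL2 and 1038 and 758 in pQ cells at 3 h against 262, 314, 260.2 and 311 at 5 h. Its late change was -1.74 ± 0.10 (SE, edgeR adjusted p = 1.26e-16). DCP1A, a decapping cofactor, changed by -0.83 and CNOT2, a subunit of CCR4-NOT, by -0.64.

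In the p53 and ribosome biogenesis lists, the shares that decreased were 47.6% and 43.9%, beside 20.3% of all genes. Of 21 p53 target mRNAs, 10 decreased, including the phosphatase PPM1D (-2.10) and the exonuclease AEN (-1.37). Of 41 ribosome biogenesis factors, 18 decreased, with RRS1, an assembly factor of the large subunit, at -1.45 ± 0.11 (SE) and POLR1B, a subunit of RNA polymerase I, at -0.83 ± 0.08 (SE). XBP1, the transcription factor of the unfolded protein response, was at 289.7 and 268 in GL2 and 309 and 330.2 in pQ cells at 3 h, and at 59.9, 71.8, 94.4 and 110.1 at 5 h, a late change of -1.85 ± 0.15 (SE, edgeR adjusted p = 1.20e-12). Of the 19 tested genes of its list, 4 decreased, which was 21.1% and near the share of all genes, among them HSPA5, the main chaperone of the endoplasmic reticulum, by -0.17.

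Of 250 tested zinc finger genes named ZNF with a number, 90 decreased, 0 increased and the median was -0.59. Of 17 SR proteins and their kinases, 8 decreased (SRSF4, -0.64), as did 14 of 38 mitotic genes (CCNF, cyclin F, -0.998) and 10 of 37 genes of replication and repair (CDT1, the replication licensing factor, -0.83). These shares were 47.1%, 36.8% and 27.0%, beside 20.3% of all genes. Of 13 BCL2 family members, 4 decreased (30.8%), led by the short-lived survival factor MCL1 at -1.58 ± 0.17 (SE). The call of BCL2A1 (-0.75) was lost without GL2 replicate 1 or either pQ replicate (-0.75 to -0.63), and that of BCL2L11 (-0.69) without either GL2 replicate or pQ replicate 1 (-0.69 to -0.53). With TMM scaling there were 13 decreases in the immediate early list, 9 and 1 increase in the ERK list, 63 and 1 increase in the ZNF list, and 10 and 2 increases in the ribosome biogenesis list. The same scaling gave 6 decreases each for the p53, mitosis and replication lists, the latter pair with 3 increases each, 4 for the SR list, 2 for the BCL2 family, and 2 with 6 increases for the endoplasmic reticulum chaperones.

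Housekeeping mRNAs were listed beside these, with 20.3% of all genes decreased and 1.01% increased as the background. None of the 74 tested ribosomal protein mRNAs decreased, 13 increased, the list median was 0.09 and the lowest late change was 0.00. RPL36A, a protein of the large subunit, was at 666 and 575 in GL2 and 701 and 608 in pQ cells at 3 h and at 903, 711, 820.1 and 716 at 5 h, a late change of 0.30 ± 0.08 (SE, edgeR adjusted p = 5.82e-03). Its call was lost without GL2 replicate 1, when the change was 0.26. RPL27A changed by 0.16, a call that was lost without GL2 replicate 2, at 0.13. The ribosomal protein increases numbered between 3 and 71 under the other scalings, and with replicate 3 added the list median turned to -0.09. In the respiratory chain, 2 of 67 genes decreased and 2 increased; among proteasome subunits 1 of 31 decreased and 1 increased, and 2 of 37 translation factors decreased. The larger of the last was that of EIF5, an initiation factor, at -0.67 ± 0.07 (SE). With TMM scaling, 39 respiratory chain, 12 proteasome and 12 translation factor mRNAs increased.

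The 119 late increases included mRNAs and RNAs made by other polymerases. BMP5, a secreted morphogen of the TGF-beta family (chr6), had 0 counts in all 4 libraries at both 0 h and 3 h. At 5 h it had 33.2 and 85.6 in GL2 and 25.4 and 43.7 in pQ cells, at least 58.7-fold above the floor of 3 counts over the 4 libraries. This level also arose during the block, and its reads were not examined. RN7SK is the RNA polymerase III transcript that restrains the elongation factor P-TEFb (chr6:52995621-52995948, plus strand). It went from 69.7 and 57.4 in GL2 and 64.6 and 129 in pQ cells at 3 h to 322, 192, 236 and 151 at 5 h. The late change was 1.47 ± 0.21 (SE, edgeR adjusted p = 9.94e-07). At 0 h it was at 24.2 and 21 in GL2 and 7.83 and 25.3 in pQ cells, so it had also risen before 3 h. QuantSeq reads polyadenylated RNA, and the reads behind the counts of RN7SK were not examined.

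MAST4, a microtubule-associated kinase, was at 15.1 and 16.2 in GL2 and 7.18 and 20.1 in pQ cells at 3 h and at 58.8, 77.3, 68.2 and 68.2 at 5 h. RNR2, the large ribosomal RNA of mitochondria, which have a polymerase of their own, changed by 0.28 ± 0.04 (SE, edgeR adjusted p = 6.84e-07), with all libraries at 5 h above all those at 3 h. RNA45SN2, a precursor of ribosomal RNA, rose from a mean of 9.31 to 67, but 198 of this came from pQ replicate 2 and its call was lost without it, when the change was 1.48. Dropping 1 replicate moved the number of increases to 58 without GL2 replicate 2 and to 191 without pQ replicate 2.

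The AU-rich nonamer TTATTTATT occurred in a similar share of late decreases and of all genes tested. In the canonical transcripts of GENCODE v44, which gave a 3′ UTR for 10462 of the 11745 genes tested, it occurred in 11.5% of decreases and in 10.0% of all tested genes on the transcript strand. The pentamer ATTTA, which the nonamer contains, occurred 2.34 times per kb in the 3′ UTRs of decreases and 2.35 times in all. The 3′ UTRs of decreases had a median of 1804 bases against 1435, and the coding sequences 1611 against 1416. Among the 594 decreases of at least 2-fold, 514 of them with a transcript, these medians were 1290 and 1425 bases. The longer 3′ UTRs were thus not seen in the steepest decreases. Of the 3489 genes in the shortest tercile of 3′ UTR length, 544 decreased, against 22.6% in the middle and 26.3% in the longest tercile. With and without the nonamer, the shares were 21.2% and 15.5% in the shortest, 20.2% and 22.8% in the middle and 26.8% and 26.2% in the longest tercile. G or C at the third codon position had a median of 54.5% among decreases and 57.3% among all, but 63.7% among decreases of at least 2-fold. These are descriptions without a test. For increases, only 68.1% of genes had a transcript, so their features were not used.

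Some of the named decreases carry the nonamer, shown in capitals in these 29-base windows of GRCh38 read 5′ to 3′ along the transcript. They are printed to show the element in members whose values are given here.
SOX9 (chr17:72125498-72125526, plus strand): cttgctaaaaTTATTTATTttgtaaggag
SPSB1 (chr1:9368200-9368228, plus strand): caaaagccatTTATTTATTccatctagaa
PHLDA1 (chr12:76029787-76029815, minus strand): tgatttatgaTTATTTATTagtttttttt
ZFP36L2 (chr2:43223448-43223476, minus strand): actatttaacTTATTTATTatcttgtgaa
AEN (chr15:88631182-88631210, plus strand): tgcctgacctTTATTTATTtattaacagc
TIFA (chr4:112276915-112276943, minus strand): aaataaaaatTTATTTATTtaagatactt
In all, 10 of the 80 named decreases with a 3′ UTR held the nonamer. SOX10, FADD, CCDC71 and BAMBI had 0 in their 3′ UTR.

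Which mRNAs left a constant course was tested as the late slope minus the early slope, in log2 per hour, over the 12 libraries at 0, 3 and 5 h. Between 0 h and 3 h, 8356 of 12542 genes had decreased, or 66.6%. After 3 h the slope was less steep for 370 genes, 2.95% of those tested, and steeper for 152, or 1.21%. The 3 h libraries enter both slopes, so an error in them moves the slopes in opposite directions. The balance again depended on the scale. Less steep slopes were 70.9% of calls with stable genes, 21.3% with TMM scaling, 39.4% with stable genes of the T arm alone and 94.4% with genes stable at both times. The number of less steep slopes was 80 without GL2 replicate 1, 68 without GL2 replicate 2 and 71 without pQ replicate 1, and the steeper ones were 79, 87 and 65. The 16 named below kept their direction and call with TMM scaling and with both other sets of stable genes.

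The rule for levelling mRNAs required an early decrease of at least 1 on the log2 scale, and the 8 named had between 1.67% and 19.6% of the 0 h level left at 3 h. DUSP6, the cytoplasmic ERK phosphatase (chr12:89347235-89352501, minus strand), was at 3148 and 3341 in GL2 and 4092 and 3942 in pQ cells at 0 h. It was at 50.5, 54.2, 72.8 and 65.8 at 3 h and at 18.2, 21.2, 19 and 30.9 at 5 h. Thus 1.67% was left at 3 h and 0.615% at 5 h, the half-life was 0.509 h early and 1.38 h late, and the slope change was 1.24 ± 0.11 log2 per hour (SE, edgeR adjusted p = 1.39e-08).

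IER2, an immediate early gene, had 64.6 and 103 in GL2 and 54.4 and 98.2 in pQ cells at 3 h and 56.7, 76.4, 66.6 and 50.9 at 5 h. The times overlapped, its late change was -0.31 ± 0.24 (SE, edgeR adjusted p = 0.41) after an early one of -3.82, and its slope change was 1.11 ± 0.11 (SE). TXNIP, the thioredoxin inhibitor, was left at 7.61% at 3 h and 6.49% at 5 h. HES1, a Notch target, and SGK1, a kinase induced by serum, went on falling at a lower rate, by -1.48 ± 0.29 and -1.10 ± 0.35 (SE). The late fall of SGK1 was not called without GL2 replicate 2 (-1.08) or either pQ replicate (-0.92 for both), and its slope change not without GL2 replicate 1 (0.61).

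Levelling was also called for SNHG12, the transcript of a snoRNA host gene. SNHG12 was at 371 and 468 in GL2 and 433 and 529.8 in pQ cells at 0 h, at 71.7, 83.4, 72.8 and 89.2 at 3 h, and at 80.2, 92, 117 and 92.8 at 5 h. Its slope change was 0.97 ± 0.11 log2 per hour (SE, edgeR adjusted p = 3.39e-06). Of 15 snoRNA host transcripts tested, 12 had a less steep slope after 3 h and 0 a steeper one, beside 2.95% and 1.21% of all genes, with a median of -1.10 early and 0.00 late. The late median was -0.38, with 4 decreases, when replicate 3 was added, and 5 of the 15 increased with TMM scaling. A less steep slope was also called for 40 of 74 ribosomal protein mRNAs and a steeper one for 0. Their early median was -0.24, so such calls were not limited to mRNAs with a large early decrease. Late decreases were called for SNHG7 (-0.98 ± 0.16) and GAS5 (-0.29 ± 0.09, SE), the latter not without either GL2 replicate (-0.27 and -0.20). The noncoding RNAs MIR3142HG and GABPB1-AS1 were at 19.6% and 18.3% of the 0 h level at 3 h and at 20.6% and 16.3% at 5 h. SNHG12 and GABPB1-AS1 overlap a coding gene on the opposite strand.

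The classical short-lived mRNAs were too low after 3 h for the late test. MYC, at 189.5 and 149 in GL2 and 208 and 247 in pQ cells at 0 h, was at 8.08, 5.42, 4.1 and 5.58 at 3 h and at 17.1, 8.28, 9.52 and 7.28 at 5 h. Each library at 5 h was above that of the same condition and replicate at 3 h, and the slope change was 2.10 ± 0.29 log2 per hour (SE, edgeR adjusted p = 5.43e-05). JUN and GADD45B had means of 16 and 5.44 at 3 h and of 8.15 and 2.27 at 5 h. ATF4, the stress response factor, decreased by -1.15 early and by -0.23 ± 0.07 (SE) late, the late call being lost without GL2 replicate 1 (-0.22) or pQ replicate 2 (-0.19).

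Steeper decay after 3 h, or decay that began late, was shown by OSGIN1, a growth inhibitor induced by oxidative stress (chr16:83931311-83966332, plus strand). It was at 573 and 644 in GL2 and 193 and 344 in pQ cells at 0 h, at 305.9, 417, 189.8 and 183 at 3 h and at 67.4, 105, 49.2 and 71 at 5 h. The half-life went from 4.70 h to 1.07 h, and the slope change was -0.72 ± 0.11 log2 per hour (SE, edgeR adjusted p = 1.40e-04). Its counts can hold reads of MLYCD, which overlaps it on the same strand. NEAT1, the noncoding RNA that scaffolds paraspeckles (chr11:65422774-65445540, plus strand), was at 3524 and 3686 in GL2 and 3290.3 and 2932 in pQ cells at 0 h. It was at 4877, 5658, 4750.2 and 4515 at 3 h and at 2163, 2608, 2554 and 3005 at 5 h, with a slope change of -0.65 ± 0.06 (SE, edgeR adjusted p = 1.04e-08). All libraries at 3 h lay above those at 0 h and at 5 h, so the slope change includes a rise of NEAT1 during the block. The reads behind this rise were not examined.

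The remaining steeper slopes named by the rule were those of RAB20, a small GTPase (-1.16), ZFPM1, a cofactor of GATA factors (-0.88), TIFA, an adaptor of TRAF6 (-0.75), CCDC71 (-0.96), SPSB1 (-0.64) and LOC107986513 (-1.47). The calls of TIFA (-0.87 to -0.62) and SPSB1 (-0.78 to -0.49) were lost without any 1 of the 4 replicates. Those of RAB20 (-1.32 to -0.99) and ZFPM1 (-0.97 to -0.72) were lost without either GL2 replicate or pQ replicate 1, and that of CCDC71 without GL2 replicate 1 (-0.74) or pQ replicate 1 (-0.90). TIFA overlaps ALPK1 and AP1AR on the opposite strand.

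How late decay ran with ribosomes blocked was followed in the TCHX arm, which shares no library with the T arm. With cycloheximide, 1259 of 12404 genes decreased after 3 h, or 10.1%, with a median of -0.09. Without GL2 replicate 2 there were 688 and without pQ replicate 2 there were 607. Of the 2386 decreases in the T arm, 2381 were tested with cycloheximide and 792 decreased there too. Their medians were -0.63 in the T arm, whose libraries had selected them, and -0.23 in the TCHX arm. Over all genes tested in each arm, the medians were -0.15 and -0.09. Tested as an interaction over 16 libraries, the late change differed between the arms for 452 of 12758 genes, or 3.54%. It was higher with cycloheximide, mostly as a smaller decrease, for 419 and lower for 33. Without GL2 replicate 2 there were 233 such genes, and without pQ replicate 1 there were 238.

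SOX10 showed the difference at the smallest p of the named genes. With cycloheximide it was at 2652 and 2845 in GL2 and 2268 and 2251 in pQ cells at 3 h and at 2390.1, 2300.1, 1939 and 2077 at 5 h, a late change of -0.20 ± 0.06 against -1.58 ± 0.08 without it (SE). The difference was 1.38 ± 0.09 (SE, edgeR adjusted p = 2.14e-11). FADD, at 767 and 814 in GL2 and 716 and 619 in pQ cells at 3 h, was still at 582, 689.6, 444 and 441 at 5 h with cycloheximide, and the arms differed by 2.42 ± 0.26 (SE, edgeR adjusted p = 2.92e-07). For PHLDA1 the difference was 1.36 ± 0.10, for DUSP4 1.34 ± 0.11, for XBP1 1.58 ± 0.17 and for RRS1 1.29 ± 0.13 (SE). AUNIP changed by -0.10 ± 0.14 with cycloheximide against -2.47 ± 0.35 without it (SE).

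The opposite difference was called for DUSP6 and IER2, 2 of the 8 levelling mRNAs. With cycloheximide, DUSP6 was still at 1066 and 1331 in GL2 and 1515 and 1531 in pQ cells at 3 h, and fell to 165, 191, 289 and 460.2 at 5 h. Its late change was -2.37 ± 0.11 with and -1.45 ± 0.32 without cycloheximide, a difference of -0.90 ± 0.26 (SE, edgeR adjusted p = 4.86e-02). For IER2 the difference was -1.29 ± 0.23 (SE, edgeR adjusted p = 5.12e-04). MCL1 changed by -2.07 ± 0.10 with and -1.58 ± 0.17 without cycloheximide, and this difference did not pass the test (edgeR adjusted p = 0.378).

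**Figure D5:**
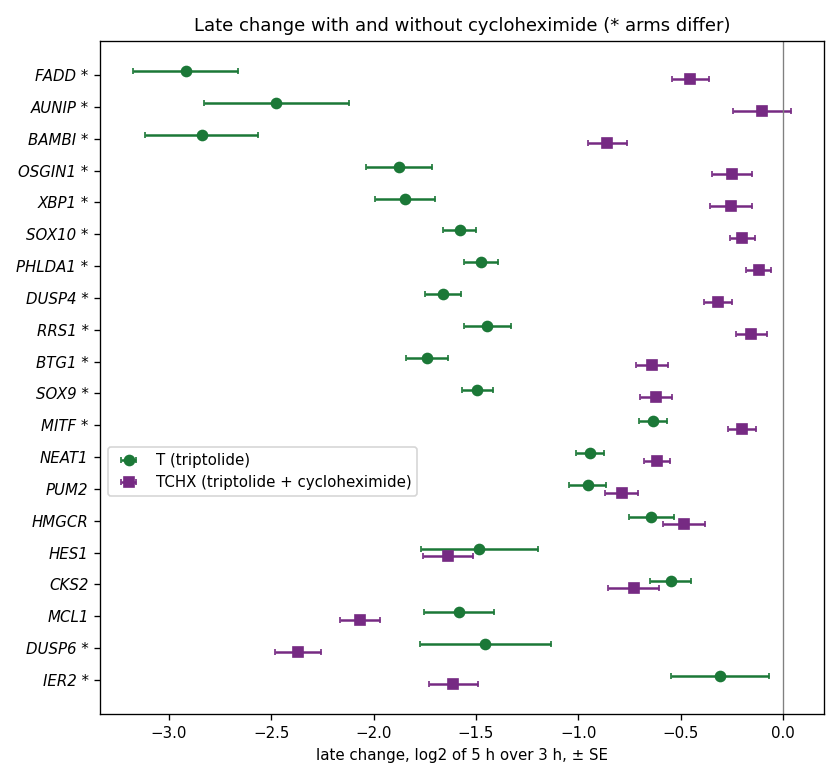
Late change on a log2 scale (x axis, ± SE) of 20 named genes in the T arm (green circles) and the TCHX arm (purple squares), ordered by the difference. Genes with an asterisk differed between the arms at an adjusted p under 0.05. FADD stands at -2.92 without and -0.45 with cycloheximide, and IER2 at -0.31 without and -1.61 with it.

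The same late interval was measured in CTU2 and mQ cells, in 8 other libraries. There, 2897 of 11888 genes decreased, or 24.4%. Of the 2386 decreases of the control conditions, 2367 were tested in these cells, 1793 decreased and 2345 had a lower level at 5 h. The upper quartile of all genes tested there was -0.0016, so most genes were lower in these cells. SOX10 was at 1473 and 1899 in CTU2 and 1044 and 1205 in mQ cells at 3 h and at 716 or lower in all 4 libraries at 5 h, a late change of -1.56 ± 0.10 (SE, edgeR adjusted p = 2.89e-11). FADD changed by -2.07 ± 0.19, BTG1 by -1.94 ± 0.10 and OSGIN1 by -2.30 ± 0.16 (SE). Of the 119 increases, 114 were tested, 32 increased and 105 were higher at 5 h, beside 120 increases among all 11888 genes. Their medians were 0.30 in the control conditions, whose libraries had selected them, and 0.14 in these cells. BMP5 had 0 counts in all 4 libraries at 3 h and between 39.1 and 106 at 5 h.

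Between the control conditions themselves, the late change differed for 4 of 11745 genes, or 0.0341%, with 503 at an unadjusted p under 0.05. LEP, the gene of the hormone leptin, was near 0 at 0 h and reached 332 and 344 in GL2 and 194 and 182 in pQ cells at 3 h. It then fell to 61 and 62.6 in GL2 but to 109 and 105 in pQ cells, and the reads behind its rise during the block were not examined. The difference pQ minus GL2 was 1.64 ± 0.30 (SE, edgeR adjusted p = 9.81e-03). The call was lost when any 1 replicate was left out, with values between 1.63 and 1.65. TRNF, the mitochondrial tRNA of phenylalanine, changed between pairs from -0.29 to 0.70, with both GL2 pairs at 0.57 or higher and both pQ pairs at 0.01 or lower. The difference of -0.78 ± 0.12 (SE) was not called without GL2 replicate 2 (-0.71). In replicate 3, left out of the fit, TRNF changed by 0.54 in GL2 and by 0.84 in pQ cells. EIF3CL and XAGE1B, which have near-identical copies, rested on single libraries, such as 359 for EIF3CL in pQ replicate 1 at 5 h and 649 for XAGE1B in GL2 replicate 2 at 3 h. The number of genes called lay between 2 and 8 when a replicate was left out, and was 0 with no replicate block and with replicate 3 added.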

How the data were processed

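Per the labels and the study's methods, the authors trimmed the forward QuantSeq reads (fastp 0.20.1), aligned them to GRCh38 (HISAT2 2.2.1) and deposited raw read counts per gene from htseq-count (HTSeq 0.13.5) with the NCBI annotation. No molecular identifiers or strand setting were stated, so counts may include PCR copies. Groups came from the sample titles. Size factors for all 72 libraries were computed here by median of ratios over 315 of 330 stable genes. A stable gene had a CPM above 0.2 at 0 h and a CPM at 3 h or 5 h at least 1.1 times that at 0 h, with the 0 h CPM above 0.1 times the later one, in both arms of replicates 1 and 2 of GL2 and pQ. Counts were tested in R 4.3.3 with edgeR 4.0.16 (filterByExpr, glmQLFit and glmQLFTest, terms for condition and replicate, Benjamini-Hochberg threshold of 0.05); glmTreat and DESeq2 1.42.0 were alternatives. The late fit had 4 residual degrees of freedom. Fits were tested on simulated data. Named were the 10 largest decreases and increases (same direction in all 4 pairs, mean raw count of at least 50 at the higher time), the 8 largest slope changes each way (mean of at least 50; levelling also needed an early fall of at least 1 on the log2 scale), 4 genes per list with the smallest late p, and JUN, MYC, ATF4 and GADD45B. The comparison, its members and the 26 lists were chosen with earlier results of these data known. Some genes that the rule named are not reported here. GENCODE v44 gave positions and transcripts, matched by symbol. SE are standard errors of fitted log2 changes, and half-lives are 2 h or 3 h divided by the fitted log2 decrease.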

Additional observations from a re-analysis of the deposited data

Results flagged for a closer look

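The late change differed between the T and TCHX arms, by the interaction test, for 43 of the genes named here, and was higher with cycloheximide for 41 of them. Over all genes called by this test, it was higher for 92.7%. Many of the 43 were named for their decrease in the T arm, whose libraries also enter the difference. The split among them is therefore no separate support. TCHX minus T, on the log2 scale, was 3.04 for RAB20, 2.49 for TIFA, 2.42 for FADD, 2.39 for EFNA1, 2.35 for AUNIP, 2.30 for CCDC71, 1.98 for ZFPM1, 1.94 for BAMBI, 1.71 for SPSB1 and 1.40 for MAD2L1BP. Among lineage, ERK and immediate early genes it was 1.38 for SOX10, 0.87 for SOX9, 0.44 for MITF, 1.36 for PHLDA1, 1.34 for DUSP4, 1.01 for FOSL1 and 0.80 for CCN2. Among decay, stress, p53 and NF-kB genes it was 1.62 for OSGIN1, 1.58 for XBP1, 1.53 for PPM1D, 1.5 for NFKBIE, 1.11 for BTG1, 1.06 for AEN and 0.89 for ZFP36L2. Among ribosome biogenesis and translation genes it was 1.29 for RRS1, 0.81 for NOP2, 0.64 for EIF5, 0.57 for POLR1B and 0.46 for NOP16. In the cell cycle and replication lists it was 0.93 for CCNF, 0.64 for CDT1, 0.54 for RFC4 and 0.40 for ASPM. It was 1.48 for ZNF697, 1.09 for ZNF282, 0.89 for ZNF410, 0.39 for ZNF24, 1.01 for CCNL1, 0.55 for SRSF4 and 0.92 for SNHG7. LOC105374748, which increased in both arms, rose more with cycloheximide, by 0.65. IER2 (-1.29) and DUSP6 (-0.90) fell more steeply with cycloheximide.

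The late change differed between the conditions, by the interaction test, for 4 genes, with pQ minus GL2 at 7.18 for XAGE1B, 4.84 for EIF3CL, 1.64 for LEP and -0.78 for TRNF.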

How the results depend on the processing

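All changes are relative to the stable genes, and a fall common to all mRNAs would not be seen. The main limits are this scale, 2 replicates per condition, and low counts after 3 h. Late decreases numbered 1467 with TMM scaling and 410 against a 1.5-fold change, and between 1868 and 2017 with a replicate left out. Late increases numbered 882 with TMM, 75 with genes stable at both times, 222 with library totals, 63 with no replicate block and 20 against a 1.5-fold change, and between 58 and 191 with a replicate left out. Less steep slopes numbered 67 with TMM, 2939 with genes stable at both times, 112 with stable genes of the T arm, 576 with DESeq2, 181 with no replicate block, 89 with replicate 3 and 68 to 356 with a replicate left out. Steeper slopes numbered 248 with TMM and 65 to 130 with a replicate left out. TCHX decreases numbered 693 with TMM, 2213 with genes stable at both times and 607 to 954 with a replicate left out. Arm differences numbered 221 with replicate 3 and 233 to 382 with a replicate left out. Condition differences numbered 2 with DESeq2, 0 with no replicate block, 0 with replicate 3 and 2 to 8 with a replicate left out. Decreases in CTU2 and mQ cells numbered 1614 with TMM, 4706 with genes stable at both times, 35 with replicate 3 and 2119 to 2501 with a replicate left out. Except where a setting alters the scale, the threshold or the libraries by construction, the cause was not tested. Same-numbered libraries deviated together with r between 0.0249 and 0.0927, so the check does not show that the numbers pair them, although replicate was a term of the main fit and late changes were counted by condition and number. With no replicate block, late decreases numbered 1970. With replicate 3 added, the late change turned to 0.0084 for EIF3A, 0.0196 for FARSA and 0.0545 for SDF2L1, and the condition difference of EIF3CL ran from -0.27 without pQ replicate 1 to 6.11 without pQ replicate 2. Of 1806 values of named late changes under the alternatives, 1623 kept their direction and side of the threshold, as did 151 of 176 slope changes and 19 of 40 condition differences.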

Other observations

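HSPA8, DNAJB1, MAST2 and RPL22L1 were among the 33 genes with a lower late change with cycloheximide than without it. They were chosen after their values were seen, and no explanation was tested. HSPA8, the constitutive cytosolic chaperone, changed by -1.46 ± 0.07 with and -0.29 ± 0.06 without cycloheximide (SE), a difference of -1.15 ± 0.15 (SE, edgeR adjusted p = 7.81e-06). DNAJB1, a cochaperone, changed by -3.19 ± 0.14 with and -1.996 ± 0.12 without it (SE), a difference of -1.15 ± 0.23 (SE, edgeR adjusted p = 2.49e-03). MAST2, a kinase, changed by -1.52 ± 0.15 with and 0.04 ± 0.11 without it, and RPL22L1, a paralog of a ribosomal protein, by -1.19 ± 0.10 with and 0.03 ± 0.05 without it.

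YTHDF2 had one of the 4 smallest p-values among late decreases. This protein binds methylated adenosine in mRNA and recruits deadenylases. Its mRNA changed by -1.68 ± 0.09 (SE, edgeR adjusted p = 4.12e-18) in the T arm and by -0.48 ± 0.07 (SE) in the TCHX arm. POP7, a subunit of RNase P, changed by -1.31 ± 0.08 in the T arm and by -0.14 ± 0.06 in the TCHX arm (SE). Both were chosen after their values were seen.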
